A study of Saccharomyces cerevisiae with 4 samples.

Results

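The TIR and PAU mannoproteins measured here are the products of 6 genes, TIR1 (YER011W), TIR2 (YOR010C), TIR3 (YIL011W), TIR4 (YOR009W), PAU23 (YLR037C, also named DAN2) and PAU24 (YBR301W, also named DAN3). Their features were found by gene symbol in the array's probe annotation, a rule that uses no ratio, though the set was drawn up with earlier results of these data known. Each had 2 features, so the set held 12 of 896 features and 6 of the 353 genes named by a single symbol. The series holds 4 two-colour arrays for yeast cell wall genes, and all 4 form 1 group of self-self hybridisations: cDNA made from 1 RNA was labelled with Cy3 and with Cy5 and put on the same array. The RNA came from untreated Saccharomyces cerevisiae BY4741, a haploid laboratory strain, grown in YEPD, a rich medium, at 24 °C. An overnight culture at an optical density of 0.8 to 1 was diluted to 0.2 and collected after another 6 h. No array of this series held RNA from cells that had been shifted to cold or deprived of oxygen. The labels do not state whether the 4 arrays stem from different cultures. The p-values therefore cover the spread of these 4 hybridisations, and that spread may be technical.

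The TIR proteins are serine- and alanine-rich mannoproteins that are attached to the glucan of the cell wall through a GPI anchor. TIR1 and TIR2 are known as cold-shock genes, and the TIR and DAN genes as a whole are known to be induced when oxygen is lacking, when they take over from the mannoproteins CWP1 and CWP2 of the aerobic wall. The PAU genes, or seripauperins, are a large family of closely related genes, many of them near chromosome ends, which are also known to be induced by lack of oxygen and repressed in its presence. In aerobic cells several of these genes are held down by Rox1 and Mot3 with the Tup1-Cyc8 corepressor, and in anaerobic cells the factor Upc2 activates them.

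A self-self ratio shows the error of a measurement and not the amount of a transcript. The names cold-shock and anaerobic could therefore not be checked against these data, nor could the strain be checked against mating type markers. A log2 ratio of 0 means equal signal in both channels. Which dye is in the numerator is not stated in the sources used here, so higher means only above the array's median ratio in the direction of the deposited value. Arrays 1 to 4 held values for 830, 809, 818 and 840 features, and their deposited medians were -0.058, -0.25, -0.19 and -0.24. Values below are centred on these medians unless called deposited, and the number of arrays limits the precision.

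Of the 6 genes, TIR1 and TIR3 were reproducibly above the array median, TIR4 was above it by an amount that differed widely from array to array, and TIR2, PAU23 and PAU24 lay closer to it. From lowest to highest mean the order was PAU23, TIR2, PAU24, TIR1, TIR3 and TIR4. Of 48 values 1 was missing, against 5.46% of the values of all features with 1 gene. The plot of the features on the 4 arrays shows each of them.

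**Figure D1:**
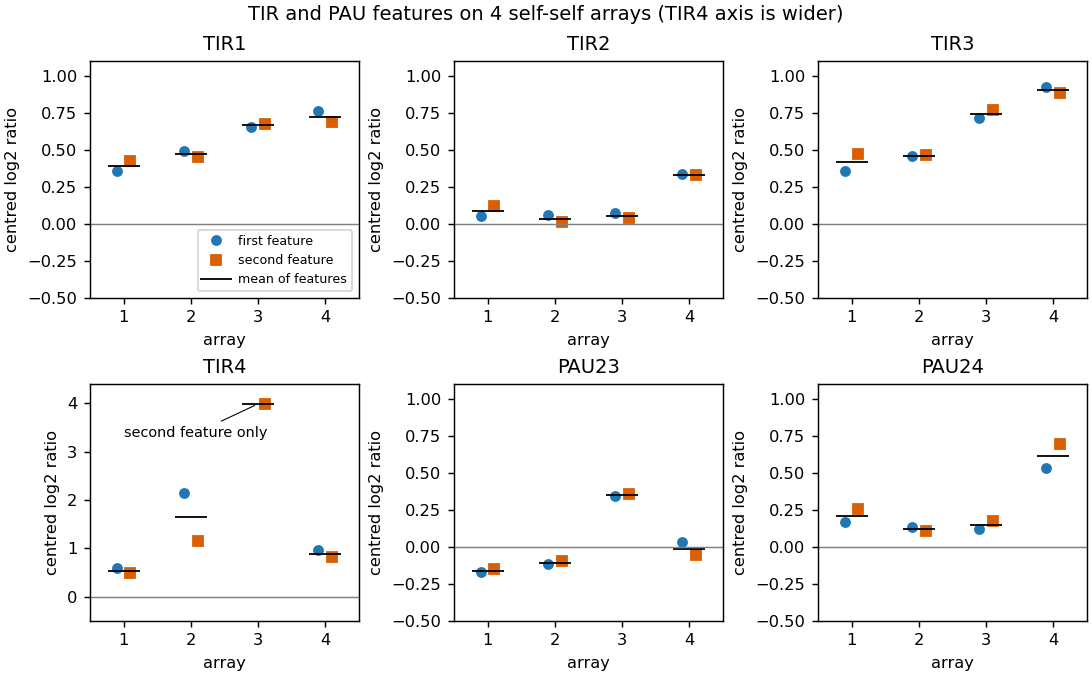
Centred log2 ratio (y axis) of both features of each TIR and PAU gene on arrays 1 to 4 (x axis), with a bar at their mean; the y axis of TIR4 is wider than the others. Duplicates of 5 genes nearly coincide, whereas those of TIR4 lie apart on array 2 and a single TIR4 feature stands at 4.00 on array 3.

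TIR1, one of the cold-shock mannoproteins, had centred log2 ratios of 0.39, 0.47, 0.67 and 0.72 on arrays 1 to 4. Every array thus lay above 0, with arrays 3 and 4 higher than arrays 1 and 2. The mean was 0.56 ± 0.157 (SD, n = 4), or 1.48-fold above the array median. It passed limma's test of the mean against 0 with an adjusted p of 0.0347 (95% interval of the mean 0.33 to 0.80). On the deposited values the mean of TIR1 was 0.38.

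TIR3, a mannoprotein known to be needed for growth without oxygen, gave 0.42, 0.46, 0.74 and 0.90 on arrays 1 to 4. Its arrays fell in the same order as those of TIR1 and again all lay above 0. The mean was 0.63 ± 0.233 (SD, n = 4), or 1.55-fold above the array median. It passed the limma test with an adjusted p of 0.0347 (95% interval 0.33 to 0.93). On the deposited values the mean of TIR3 was 0.45. One deposited value of TIR3, 0.415 for its second feature on array 1, equalled the log2 of 4/3, a ratio of small whole numbers. Such ratios made up 7.20% of the values of all features with 1 gene.

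TIR4, like TIR1 and TIR3 known to be needed in anaerobic growth, was the least well measured of the 6. Its first feature read 0.59, 2.14 and 0.97 on arrays 1, 2 and 4 and had no value on array 3. Its second feature read 0.48, 1.16, 4.00 and 0.82 on arrays 1 to 4. The duplicates therefore differed by 0.98 on array 2, against 0.105 on array 1, and array 3 rested on 1 feature alone. That feature's deposited value of 3.81 equalled the log2 of 14/1 (whole-number ratios up to 20 made up 12.1% of the values of all features with 1 gene). Averaged over features, TIR4 had 0.53, 1.65, 4.00 and 0.89 on arrays 1 to 4, all above 0. The mean of 1.77 ± 1.56 (SD, n = 4) did not pass the limma test, with an adjusted p of 0.116, and its 95% interval ran from 0.031 to 3.51. Without array 3 the mean was 1.03 ± 0.570 (SD, n = 3), with an adjusted p of 0.103 in limma.

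TIR2, the second cold-shock member, lies next to TIR4 in the yeast gene order (R64 gene table) and gave a different picture. Its centred log2 ratios were 0.085, 0.033, 0.055 and 0.33 on arrays 1 to 4. The first 3 lay within 0.1 of the array median and array 4 stood above them. The mean was 0.13 ± 0.139 (SD, n = 4), did not pass the limma test (adjusted p = 0.312) and had a 95% interval of -0.094 to 0.35. On the deposited values the mean of TIR2 was -0.058, below 0, so its direction depends on the centring. Without array 4 the centred mean was 0.058 ± 0.0261 (SD, n = 3).

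PAU23 gave -0.16, -0.11, 0.35 and -0.012 on arrays 1 to 4. Array 3 alone lay above 0. Its mean of 0.017 ± 0.231 (SD, n = 4) had an adjusted p of 0.920 in limma and a 95% interval of -0.28 to 0.32. The sign of this mean turned on the deposited values, where it was -0.17, and without array 3, where it was -0.094 ± 0.0756 (SD, n = 3).

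PAU24, the other seripauperin gene of the set, gave 0.21, 0.12, 0.15 and 0.61 on arrays 1 to 4. As for TIR2, the first 3 arrays read alike and array 4 stood highest. The mean of 0.27 ± 0.230 (SD, n = 4) did not pass the limma test (adjusted p = 0.145), with a 95% interval of -0.026 to 0.57. Without array 4 it was 0.16 ± 0.0467 (SD, n = 3), and on the deposited values of all 4 arrays it was 0.089.

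In all, 2 of the 6 genes passed at an adjusted p of 0.05 over all 345 genes tested, both of them higher, and 0 were lower. Over all 345 genes 10.7% were called higher, 14.2% lower and 24.9% in either direction. On the deposited values 112 genes were called, 21 higher and 91 lower, against 37 higher and 49 lower after centring, and TIR1 and TIR3 were called higher in both. With any 1 array left out, 0 of the 6 genes passed, and over all genes at most 1 passed. In those fits 2 or 3 of the 6 had an unadjusted p under 0.05 in limma. Without arrays 1 to 4 in turn, 115 of 333, 119 of 335, 114 of 330 and 118 of 328 genes had such a p. With all 4 arrays 3 of the 6, TIR1, TIR3 and TIR4, had an unadjusted p under 0.05, against 41.4% of all genes. The mean lay beyond 2-fold in 1 of the 6, TIR4, against 8.12% of all genes. The ratio kept 1 sign on every array for 5 of the 6, all but PAU23, against 51.3% of all genes. As deposited 3 of the 6 did, TIR1, TIR3 and TIR4, against 55.9% of all genes. The median of the 6 means was 0.42, and 0.23 on the deposited values. For the 339 other genes the median of the means was -0.051, and the deposited values lower the median over all genes to -0.23.

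On single arrays the set moved as follows. Its median was 0.30, 0.29, 0.51 and 0.67 on arrays 1 to 4, and that of the other genes was -0.027, -0.035, -0.0065 and -0.072. On arrays 1 to 4, 0, 1, 1 and 0 of the 6 lay beyond 2-fold, and both of these values belonged to TIR4. Of the other genes 12.0%, 13.6%, 11.6% and 15.7% lay beyond 2-fold on those arrays. Beyond 1.5-fold lay 0, 1, 3 and 4 of the 6, against 27.9%, 29.0%, 25.6% and 31.1% of the other genes. Array 4 gave the highest value of TIR1, TIR2, TIR3 and PAU24, and array 3 that of TIR4 and PAU23. Of the other genes with values on all arrays, 29.0% were highest on array 4 and 28.0% on array 3.

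**Figure D2:**
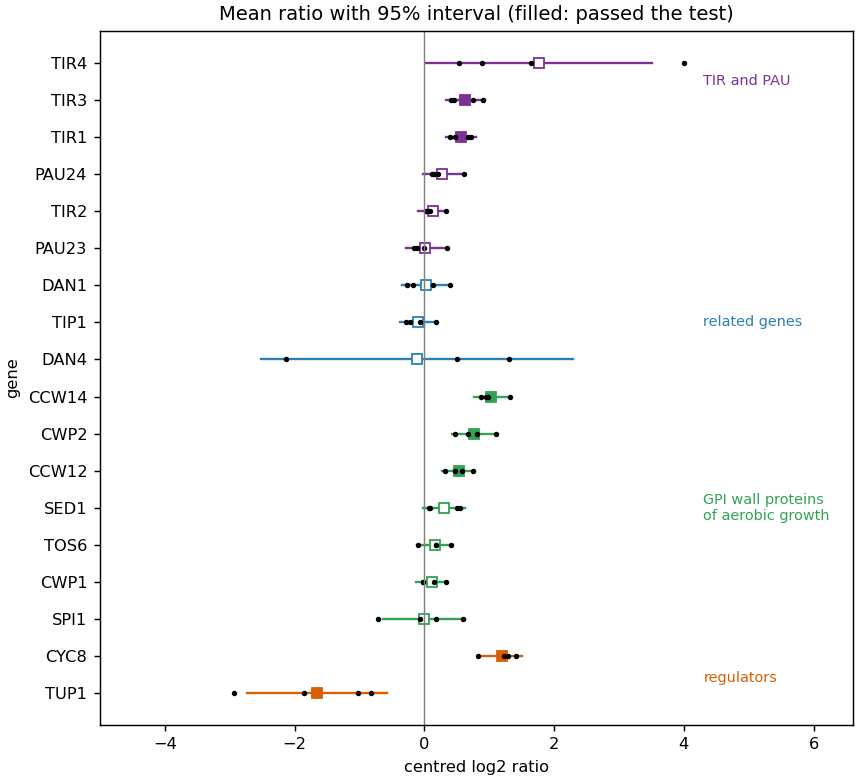
Mean centred log2 ratio (x axis, squares) with its 95% interval from limma (lines) and the values on single arrays (dots) for the TIR and PAU genes, 3 related genes, 7 GPI-anchored wall proteins of aerobic growth and 2 regulators (y axis). Filled squares passed an adjusted p of 0.05; of the TIR and PAU genes these are TIR1 and TIR3, and the interval of TIR4 is the widest of the 6.

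Duplicate features tell how precisely a gene was read within an array, not whether its ratio was unbiased. FBA1 and CDC19, for example, had average duplicate differences of 0.000275 and 0.0041 and were still called higher in limma, at means of 0.72 and 0.73. The duplicates of TIR1 differed by 0.021 to 0.070 on the log2 scale, those of TIR2 by 0.0049 to 0.067 and those of TIR3 by 0.0029 to 0.114. Those of PAU23 differed by 0.015 to 0.091 and those of PAU24 by 0.033 to 0.166. For TIR4 the 3 arrays with both features gave 0.105 to 0.981. The average difference was between 0.036 and 0.085 in the 5 members other than TIR4, at or below the 38.1th percentile of all genes. In TIR4 it was 0.413, at the 82.0th percentile. The median over the 6 was 0.052, and over the 338 other genes with both features on at least 1 array it was 0.114.

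The spread between arrays was larger than that between duplicates in every member. This comparison was not made over all genes, so it does not tell whether the members differ from other genes. The SD between arrays is that of feature averages, and the SD within duplicates is that of single features. The SD between arrays was 4.12, 4.53, 4.92, 3.82, 6.84 and 3.28 times the SD within duplicates for TIR1, TIR2, TIR3, TIR4, PAU23 and PAU24. For TIR4 the 2 SDs cover different arrays, 4 between arrays and the 3 with both features within duplicates. Its SD within duplicates was 0.407, and its SD between arrays fell to 0.570 without array 3. PAU23, with the smallest average duplicate difference of the 6, had the largest of these quotients. The SD between arrays was 0.139 for TIR2 and 0.157 for TIR1, between 0.230 and 0.233 for PAU24, PAU23 and TIR3, and 1.56 for TIR4. Its median was 0.230 over the 6, 0.239 over the 339 other genes and 0.173 over the 209 genes in which no value was missing or a ratio of whole numbers up to 10.

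By these measures TIR1, TIR2, PAU23 and PAU24 had all 8 values, no ratio of small whole numbers, and an SD and a duplicate difference below the median of all genes. These were 4 of the 6, against 31.7% of all genes. The SD of PAU23 and PAU24 lay just inside that median of 0.236. Over the 209 genes with no missing value or whole-number ratio up to 10 the median SD was 0.173. PAU23 and PAU24 lay above that median, and TIR1 and TIR2 below it. TIR3 missed this description through its single 4/3 ratio, and TIR4 through all 4 measures once ratios up to 14/1 are counted. A missing value occurred in 1 of the 6, TIR4, against 20.9% of all genes. A missing value or a ratio of whole numbers up to 10 was present in 2 of the 6, TIR3 and TIR4, against 39.4% of all genes. Channel intensities were not used here, so whether TIR4 was dim could not be measured.

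**Figure D3:**
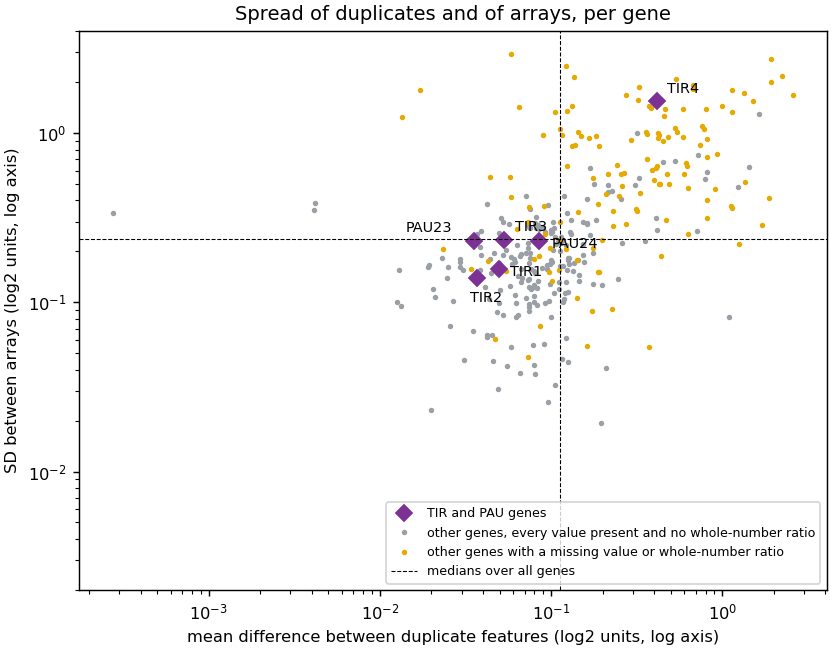
SD between arrays (y axis, log scale) against the mean difference between duplicate features (x axis, log scale) for each gene, with dashed lines at the medians over all genes. TIR1, TIR2, TIR3, PAU23 and PAU24 lie left of the median duplicate difference of 0.113 with SDs of 0.139 to 0.233, and TIR4 lies at the upper right among genes with missing values or whole-number ratios.

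Whether paralogs read alike was examined in all 15 pairs of the 6 genes by the difference on each array. TIR1 and TIR3 were the closest pair. TIR1 minus TIR3 was -0.024, 0.013, -0.076 and -0.18 on arrays 1 to 4, with a mean of -0.066 ± 0.0837 (SD, n = 4). On array 4 they differed by more than their duplicates did on any array, at most 0.070 for TIR1 and 0.114 for TIR3. An exact two-sided sign-flip test gave p = 0.25 (adjusted p = 0.268 over 15 pairs), and with 4 arrays it cannot go below 0.125, so no pair could pass 0.05. The 4 deposited features of both genes ran from 0.30 to 0.42 on array 1, from 0.21 to 0.25 on array 2, from 0.47 to 0.58 on array 3 and from 0.45 to 0.68 on array 4.

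TIR1 and TIR3 were also each other's nearest gene among the 327 genes with values on all arrays, with a root mean square difference of 0.098 over the 4 arrays. The median distance of TIR1 to all 326 other genes was 0.732. Being mutually nearest was not rare, since 166 of the 327 genes were in such a pair. The features of TIR1 and TIR3 stand in adjacent rows of the deposited table. Of 248 pairs of genes in adjacent rows, 5 were at least as close as TIR1 and TIR3, that pair itself included. This was 2.02%, against 0.587% of all pairs of genes. The median distance was 0.669 for adjacent rows and 0.716 for any pair of genes. Among genes with no missing value or whole-number ratio these medians were 0.462 and 0.473. Cross-hybridisation of these paralogs was not tested, since probe sequences were not used here.

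The other pairs lay farther apart than TIR1 and TIR3. PAU23 minus PAU24 was -0.37, -0.23, 0.20 and -0.63 on arrays 1 to 4, and each array differed by more than the duplicates of PAU23 or PAU24 did on any array. The mean difference was -0.26 ± 0.347 (SD, n = 4; exact sign-flip p = 0.25, adjusted p = 0.268). PAU24 was the 146th nearest of 326 genes to PAU23. TIR1 was above TIR2 on every array, by 0.31, 0.44, 0.61 and 0.39, with a mean difference of 0.44 ± 0.128 (SD, n = 4; exact p = 0.125, adjusted p = 0.170). TIR2 was closer to PAU24 and below it on every array, with a mean of TIR2 minus PAU24 of -0.15 ± 0.0910 (SD, n = 4; exact p = 0.125, adjusted p = 0.170).

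Of the 15 pairs, 11 kept 1 sign on all 4 arrays. The pairs share genes and are not independent of each other. The same count was not made over all pairs of genes, so it does not tell whether the members differ from other genes. In the order of means, the neighbours TIR2 and PAU24, and PAU24 and TIR1, were among the 11. The neighbours PAU23 and TIR2, TIR1 and TIR3, and TIR3 and TIR4 were not, and changed order from array to array. TIR3 minus TIR4 had a mean of -1.14 ± 1.51 (SD, n = 4), with -3.25 on array 3 and 0.011 on array 4.

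**Figure D4:**
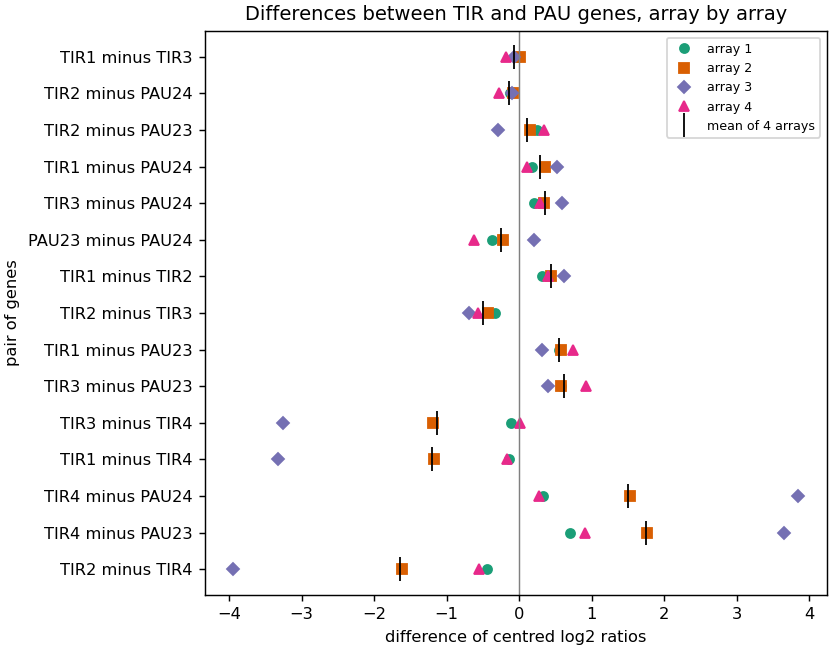
Difference of centred log2 ratios (x axis) between the members of each of 15 pairs of TIR and PAU genes (y axis, closest pair at the top), with a symbol per array and a bar at the mean. TIR1 minus TIR3 stays within 0.18 of 0, and the pairs with TIR4 lie farthest from 0 on array 3, down to -3.94 for TIR2 minus TIR4 and up to 3.85 for TIR4 minus PAU24.

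The genes whose 4 values lay nearest to each of the other members are given here as a description. For TIR2 they were TMA10 and CAX4, at root mean square differences of 0.060 and 0.063, for PAU23 YGR079W and FLC1, at 0.087 and 0.0996, and for PAU24 RGT2 and FIT3, at 0.103 and 0.105. After each other, TIR1 was nearest to PCM1, a phosphoacetylglucosamine mutase, at 0.129, and TIR3 to AGA2, the adhesion subunit of a-agglutinin, at 0.144. TIR4 had no gene as near, with BUD8 at 0.724 and ECM2 at 0.880.

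Related cold and anaerobic genes were compared next. Of 25 further DAN, TIP and PAU genes listed, 3 were on the array under a single symbol. In limma 0 of the 3 passed in either direction, beside 24.9% of all genes. At an unadjusted p under 0.05 it was also 0, beside 41.4% of all genes, and 3 genes are too few to tell these apart. DAN1, an anaerobic wall mannoprotein, read -0.18, -0.27, 0.13 and 0.39 on arrays 1 to 4, a mean of 0.018 ± 0.299 (SD, n = 4). TIP1, the cold- and heat-shock mannoprotein of the same family, read -0.071, -0.23, -0.28 and 0.18, a mean of -0.10 ± 0.205 (SD, n = 4). DAN4, the gene next to DAN1 and a wall mannoprotein of anaerobic cells, had no value on array 2 and read 0.50, -2.13 and 1.31 on arrays 1, 3 and 4, with a mean of -0.11 ± 1.80 (SD, n = 3).

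DAN4 thus resembled TIR4 in its gaps and its spread, with 3 of 8 values missing and 1 feature alone on array 3, whose deposited value of -2.32 equalled the log2 of 1/5. On that array DAN4 lay far below 0 and TIR4 far above it. A further pair of features was annotated to both PAU6 and PAU18 and entered no gene test. The features read -0.17 and -0.22 on array 1, -0.44 and -0.37 on array 2, -0.25 and -0.26 on array 3, and 0.19 and 0.13 on array 4. Like TIR1, TIR2, TIR3, PAU24, DAN1 and TIP1, they were highest on array 4.

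Among 7 GPI-anchored wall proteins known from aerobic growth, 3 were called higher and 0 lower, beside 10.7% higher and 14.2% lower over all genes. The median of their means was 0.30, beside -0.043 over all 345 genes. These were CCW14, of the inner wall layer, at 1.03 ± 0.195, CWP2, a major mannoprotein of the aerobic wall, at 0.77 ± 0.265, and CCW12, at 0.53 ± 0.183 (SD, n = 4 each), with adjusted p-values from limma of 0.0207, 0.0347 and 0.0347. TIR1 and TIR3 thus lay above the array median by amounts between those of CCW12 and CWP2. The 4 that did not pass had means of -0.0069 to 0.30.

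Of 10 regulators of anaerobic genes listed, CYC8 and TUP1 were on the array, and the 2 subunits of the corepressor lay on opposite sides. CYC8 gave 1.23, 0.83, 1.42 and 1.28 on arrays 1 to 4, a mean of 1.19 ± 0.252 (SD, n = 4; adjusted p = 0.0207, limma). TUP1 gave -2.93, -0.82, -1.02 and -1.85, a mean of -1.66 ± 0.962 (SD, n = 4; adjusted p = 0.0489, limma). TUP1 had 3 missing values, and CYC8 had 1 missing value and 4 ratios of whole numbers up to 10. With scaling, quantile normalization or a robust fit TUP1 did not pass, at adjusted p-values of 0.0532, 0.0570 and 0.0589 in limma.

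The 8 abundant household genes had a median of 0.53, and 2 of them were called higher and none lower (5 higher with quantile normalization). This count and those of the next lists stand beside 10.7% higher and 14.2% lower over all genes. Of the strain and cell type markers on the array, 1 of 2 genes of mating type a was higher, the 1 gene of mating type alpha was lower, the 1 gene that this strain background lacks was higher, and 2 of 7 sporulation genes were higher and 0 lower (1 lower on the deposited values). The sporulation list, whose genes are not known to be active in growing cells, had a median of 0.75, with 6 of its 7 genes holding a missing value or a whole-number ratio. On the deposited values the gene that the strain background lacks did not pass. Without features holding a missing value or a whole-number ratio the alpha gene did not pass, and of the sporulation list only GAS2 and SMK1, not called with all features either, were left to test, with a median of -0.0036. The 3 related genes DAN1, DAN4 and TIP1 had a median of -0.10.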

How the data were processed

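The authors deposited 1 log2 ratio per feature and array. The sources used here do not give how it was made (scanner, software, background correction, normalization, numerator dye). That the scale is log2 was read from the values: 11.3% of 3297 lay within 5e-05 of the log2 of 2 whole numbers divided by each other, both at most 10, against 0.152% once the arrays were centred. Genes were named by the platform annotation, and its Entrez identifiers were all found in the R64 gene table (724 of 724 features with 1 gene). No coordinates are printed, since the files name no build. Protein and probe sequences were not used here.

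Each array was centred on its median, features of a gene were averaged, and each gene present on 3 or more arrays was tested against 0 with limma (lmFit on an intercept, eBayes, two-sided, Benjamini-Hochberg over 345 genes, 0.05). The prior had 1.38 degrees of freedom. Members were compared with an exact sign-flip test over arrays. Named genes were the members, their 2 nearest genes, and genes of the lists for related genes, aerobic wall proteins, regulators, household genes and markers. The members, lists and tests were chosen with earlier results of these data known. The limma step was tested on simulated data and the search for whole-number ratios on constructed values, and the other steps were not. Alternatives covered centring, scaling, features, arrays, fit and thresholds. Centring by 8 blocks of rows was added after seeing the data. R 4.3.3, limma 3.58.1, Python 3.11.15, pandas 2.3.3 and matplotlib 3.10.9 were used.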

Additional observations from a re-analysis of the deposited data

Results flagged for a closer look

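The 34 genes examined were the 6 TIR and PAU genes and the genes of the lists with values on all arrays. Of these, 2 had 1 array far from the other 3, where chance flags about 1 gene in 20. Nearest genes outside the lists were not examined. TDH3, a glycolytic gene of the household list, read 1.14 on array 2 and 0.36 to 0.40 on the others. On array 2 TDH2, FBA1 and CDC19 of the same list read 1.14, 1.14 and 1.17, and on array 1 each read 0.39 or 0.40; saturation could not be measured, since intensities were not used. DIT2, a sporulation gene, read -0.51 on array 3 and 2.31 to 2.83 on the others. None of the 6 TIR and PAU genes was flagged, also not TIR4, whose other 3 arrays were themselves spread from 0.53 to 1.65. TIR2 and PAU24 fell just short of being flagged, both through array 4. TIR2 read 0.33 there and 0.033 to 0.085 on the others, and PAU24 read 0.61 there and 0.12 to 0.21 on the others.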

How the results depend on the processing

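TIR1 and TIR3 were the 2 members called higher as deposited, with scaling, with quantile normalization, with values required on all 4 arrays, without features holding a missing value or whole-number ratio, in a robust fit, with features kept apart and with 8 blocks of rows centred. Leaving out each array in turn, 0 members and 0 to 1 of all genes passed, where fewer samples entered the fit; the median of the 6 means ran from 0.34 to 0.46 and their median SD from 0.159 to 0.250. Over all genes 143 passed at an unadjusted p of 0.05, and 157 of 691 features passed when kept apart. The mean of TIR2 turned to -0.058 as deposited. That of PAU23 turned to -0.17 as deposited, -0.013 in the robust fit, -0.0095 with blocks centred and, with each array left out, ran from -0.094 without array 3 to 0.077 without array 1. That of DAN1 turned to -0.17 as deposited and -0.024 with blocks centred, was -0.018 without array 3 and -0.11 without array 4, and reached 0.11 without array 2; the cause was not tested. No paired analysis was possible because the 4 arrays form 1 group. Signal over background is unknown, so it could not be set beside any value.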
